A study of Mus musculus with 2 samples.

Results

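This account describes 201 sites of mouse liver where the corepressor SMRT was called at both Zeitgeber times (ZT) compared. At each of them the peak of the ZT22 list carried the higher score by the rule given next. Peaks of the ZT10 and ZT22 lists were paired when they shared 1 bp or more and each overlapped exactly 1 peak of the other list. Of the 14578 such pairs, those with a ZT22 score of 2.5 or more that was at least 1.5 times the ZT10 score were taken, which is 1.38% of the pairs. They are called ZT22-higher sites below. They were selected on the scores of both lists, so those scores and their ratios are a description and support nothing by themselves.

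The livers came from male C57BL/6 mice aged 12 weeks that ate freely and were not treated, killed at ZT10 (5 pm, late in the light phase) or at ZT22 (5 am, late in the dark phase). Whole liver was used, so all its cell types contributed. Chromatin of 4 mice per time was immunoprecipitated mouse by mouse and then pooled into 1 library, which leaves 1 library per time and no replicate check. No test of a difference between times was possible, and read depth is unknown. An effect of the hour and any other difference between the 2 pools cannot be told apart. The names of all 21370 peaks in the list labelled ZT10 read 5 am and those of all 24078 peaks in the list labelled ZT22 read 5 pm, the opposite of the sample labels. The sample labels are followed here; with the peak names instead, each direction would be reversed.

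SMRT, a corepressor named for its role at retinoid and thyroid hormone receptors, does not bind DNA itself. Nuclear receptors and other repressors tether it to chromatin, and it brings in histone deacetylase 3, whose catalytic activity it switches on, so that acetyl groups are removed from histones near its sites. In liver, the SMRT and NCoR corepressors work with receptors such as REV-ERB alpha, a clock component whose level rises and falls over the day, and with receptors that control lipid and bile acid genes.

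Most ZT22-higher sites, 173 of 201, had a ZT22 score below 4. Their ZT22 scores ran from 2.5 to 8.3 with a median of 3.0, and their ZT10 scores from 1.0 to 4.3 with a median of 1.9. The ratio of the scores had a median of 1.63 and reached 2.8. Most of the ratios were close to the limit that defines the sites, with an upper quartile of 1.76, and 22 sites reached 2 or more. At ZT10, 112 sites scored below 2, and 2 stood at 1.0, the lowest score listed. Strong sites were few, with 28 at a ZT22 score of 4 or more and 8 at 5 or more.

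Differences in the direction of ZT22 were the less common kind. Among the 4369 pairs with a ZT22 score of 2.5 or more, 201 met the ratio, or 4.6%. The mirror image of the rule, a ZT10 score of 2.5 or more and at least 1.5 times the ZT22 score, held for 504 pairs, which is 3.46% of all pairs and 10.4% of the 4825 with such a ZT10 score. These are called ZT10-higher sites. Across all pairs the ZT22 score was the higher in 39.5%, and the median ratio was 0.96. What a unit of score stands for is unknown, so the same rule was also applied after each ZT10 score had been replaced by the ZT22 score of equal rank among the pairs. The replacement raised the ZT10 score of none of the 201 sites, so all of them had to meet the rule again. With 83 more that met it, 284 pairs passed (1.95%), against 343 (2.35%) in the direction of ZT10. The share of ZT22 among sites that passed in either direction thus moved from 28.5% to 45.3%, so the size of the imbalance between the directions depended on the scale.

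**Figure D1:**
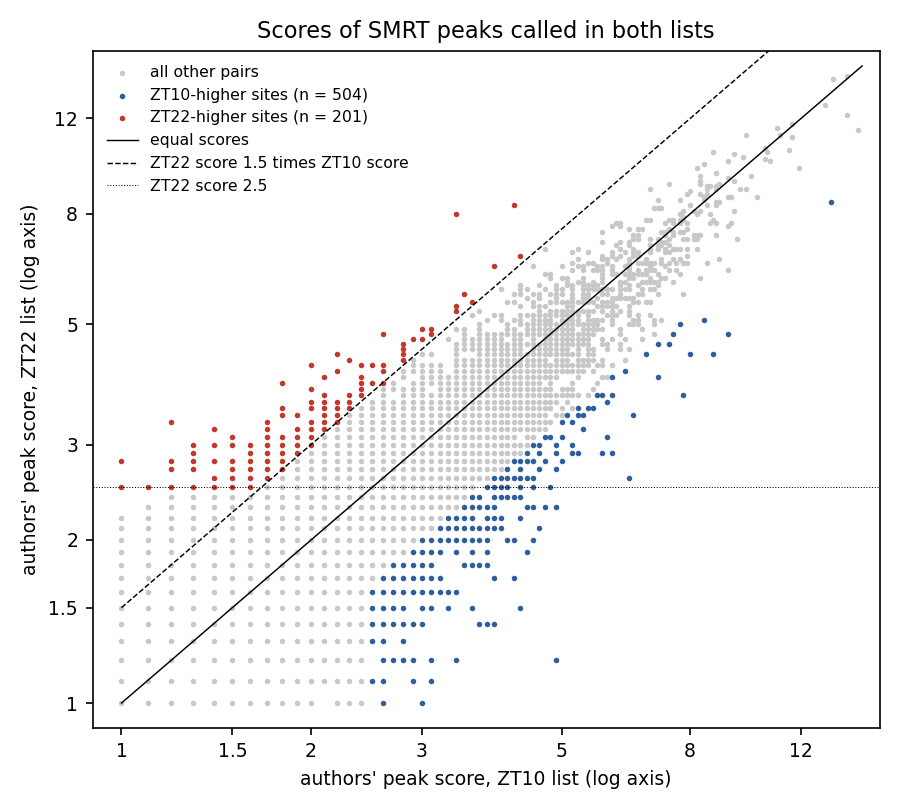
Scores of the 14578 paired peaks in the ZT10 list (x) and the ZT22 list (y), both on log axes; each point is a combination of scores that 1 or more pairs hold. The 201 ZT22-higher sites (red) lie above the dashed line and the dotted line that define them, mostly at ZT22 scores below 4, and the 504 ZT10-higher sites (blue) lie on the other side.

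Such ratios were less common at scores of 4 or more than below, in either direction. The classes use a score that the rule itself uses, so this too is a description. The ratio was met by 84 of 1635 pairs (5.14%, exact Clopper-Pearson 95% interval 4.12 to 6.32) at ZT22 scores from 2.5 to below 3, and by 89 of 1558 (5.71%, 4.61 to 6.98) from 3 to below 4. It was met by 20 of 592 (3.38%, 2.08 to 5.17) from 4 to below 5 and by 8 of 584 (1.37%, 0.593 to 2.68) at 5 or more. For ZT10-higher sites the shares by ZT10 score were 11.3%, 11.7%, 9.50% and 6.02% in the same classes. These intervals, like all below, hold the counting error alone; variation among mice is not in them.

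Ranks follow from the same scores and are likewise a description. A rank here is 1 plus the number of peaks with a higher score, and the lists differ in length. The median rank was 2626 of 24078 in the ZT22 list and 8328 of 21370 in the ZT10 list. In the ZT22 list 24 sites were among the 1000 strongest peaks, and in the ZT10 list none was, the best rank there being 1063. On a scale of 0 to 100 among the pairs, the median site stood at percentile 82.0 at ZT22 and 45.1 at ZT10. The gain was positive at all 201 sites, between 6.25 and 77.0 points with a median of 38.1. At ZT10, 144 of the sites were still in the stronger 50% of their list.

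**Figure D2:**
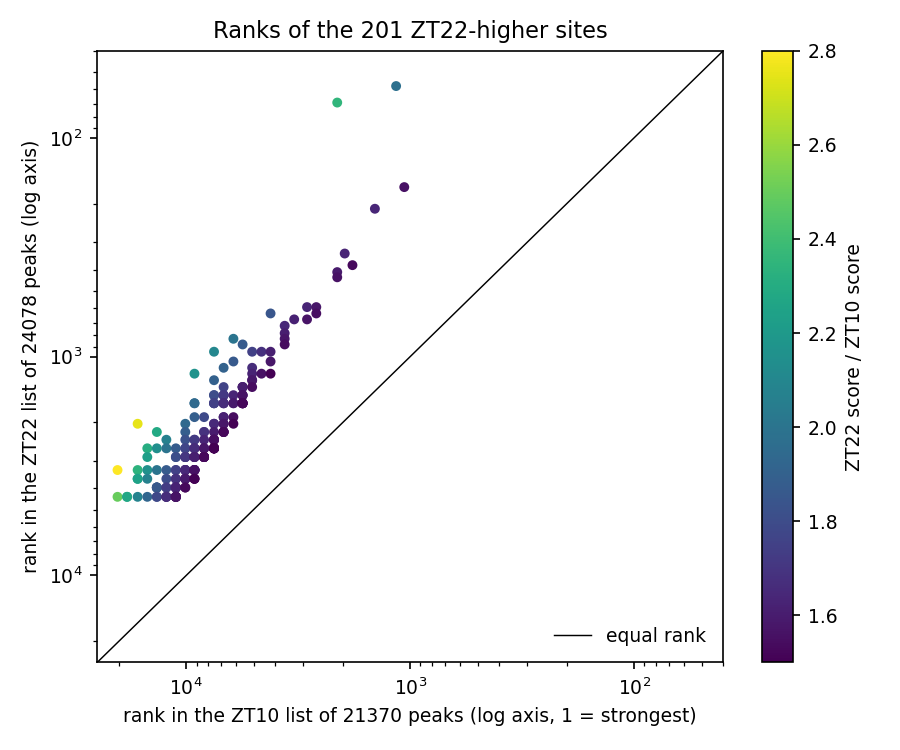
Rank of each of the 201 ZT22-higher sites in the ZT10 list (x) and in the ZT22 list (y), on log axes with the strongest peaks at the right and the top; colour gives the ratio of ZT22 to ZT10 score. All points lie above the line of equal rank, and the yellow and green points, with ratios above 2, are mostly at low ZT10 ranks.

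The 2 strongest sites had the highest ratios among the 10 strongest. The first, on chromosome 4 at 49569538 to 49569737, scored 8.3 at ZT22 and 4.2 at ZT10, a ratio of 1.98. Among the pairs it stood at percentile 99.6 at ZT22 and 92.0 at ZT10. A second peak of nearly the same height, at 49570229 to 49570428 with a ZT22 score of 7.9, lay 698 bp away and was called at ZT22 alone. The ZT10 list had no other peak within 5 kb there, so the site was a doublet in the ZT22 list and a single peak in the ZT10 list.

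The second site, on chromosome 7 at 97292547 to 97292746, scored 8.0 at ZT22 and 3.4 at ZT10, a ratio of 2.35. Among the pairs it stood at percentile 99.5 at ZT22 and 85.3 at ZT10. Its surroundings were the reverse of those on chromosome 4. The ZT10 list held 2 more peaks 332 bp and 1416 bp away, with scores of 2.7 and 3.0, and the ZT22 list held none within 5 kb. The site was thus 1 peak in the ZT22 list and 1 of 3 close peaks in the ZT10 list. Scores summed over all listed peaks within 2 kb, the site included, were 8.0 at ZT22 and 9.1 at ZT10. Over the 201 sites, the ratio of such sums had a median of 1.57 and was below 1.5 at 49 sites and below 1 at 12. At 139 of the 201 no other peak lay within 2 kb, so the sums were the site's own scores and met the ratio by selection. Only the 62 sites with another listed peak within 2 kb could fall below 1.5. Such sums were not computed for the other pairs.

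The other 8 of the 10 strongest sites had ratios between 1.53 and 1.64. The site on chromosome 10 at 7464576 to 7464775 scored 6.7 at ZT22 and 4.3 at ZT10 and had no other peak of either list closer than 18.4 kb. The site on chromosome 5 at 144511947 to 144512146 scored 6.4 and 3.9, with a ZT10 peak of score 1.8 at a distance of 300 bp that the ZT22 list lacked. These sites thus differed in what lay beside them although their ratios were close.

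The fifth site, on chromosome 10 at 80361032 to 80361231 (5.7 at ZT22 and 3.5 at ZT10), lay in a crowded stretch with 131 other listed peaks within 500 kb, those of both lists added. At its neighbour 1.13 kb away the order was the opposite, 3.5 at ZT22 and 3.7 at ZT10. The sixth, on chromosome 7 at 44638160 to 44638359 (5.5 and 3.6), and the eighth, on chromosome 17 at 67064439 to 67064638 (5.3 and 3.4), stood alone within 10 kb. The remaining 3 were a pair on chromosome 6, at 37526971 to 37527170 (5.4 and 3.4) and at 128074355 to 128074554 (4.9 and 3.1), and 1 on chromosome 4 at 43541134 to 43541333 (4.9 and 3.0). Of the 10 strongest sites, 3 had no other peak within 10 kb.

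**Figure D3:**
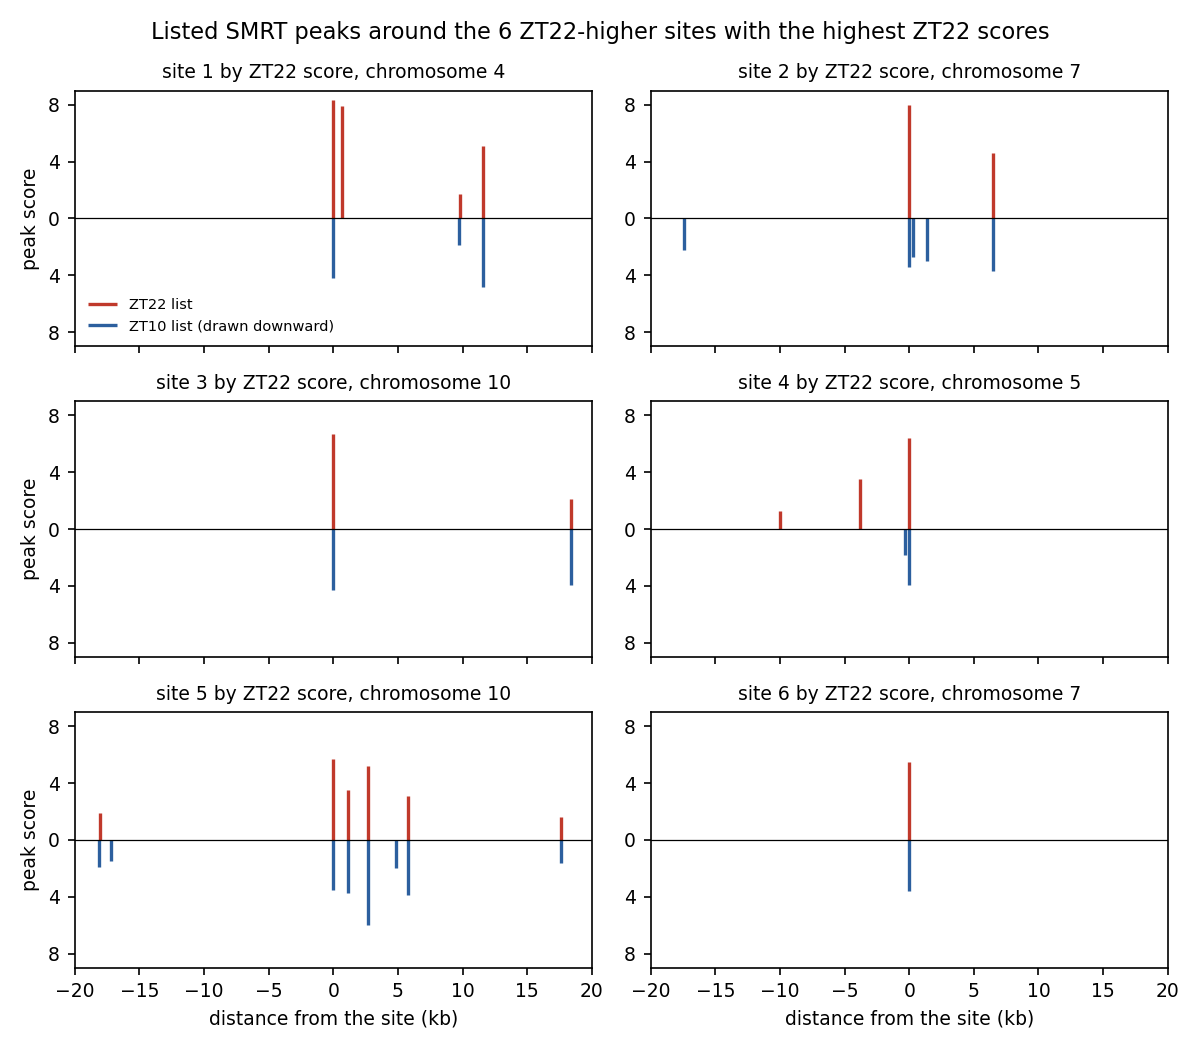
Listed peaks within 20 kb of the 6 ZT22-higher sites with the highest ZT22 scores; bars show peak scores, upward for the ZT22 list and downward for the ZT10 list, by distance from the site in kb. The chromosome 4 site has a ZT22-only companion of score 7.9, the chromosome 7 site of score 8.0 has 2 ZT10-only companions, and the third and sixth sites have no neighbour within 10 kb.

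The highest ratios belonged to sites near the bottom of the ZT10 list. The highest, 2.8, was on chromosome 4 at 135060605 to 135060804, with scores of 2.8 at ZT22 and 1.0 at ZT10. The next, 2.75, was on chromosome 5 at 144624532 to 144624731, with 3.3 and 1.2. It had the largest gain in percentile, 77.0 points. A site on chromosome 15 at 76517657 to 76517856 had scores of 2.5 and 1.0. Apart from the chromosome 7 site above, the 10 highest ratios all rested on ZT10 scores between 1.0 and 1.4, where a step of 0.1 in the deposited score changes the ratio most.

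The remaining 6 of these 10 had ratios from 2.25 to 2.33, and the tenth place was tied with a site on chromosome 6 at 90694250 to 90694449 (2.7 at ZT22 and 1.2 at ZT10). They lay on chromosome 8 at 80029056 to 80029255 (2.8 at ZT22 and 1.2 at ZT10), chromosome 1 at 37822680 to 37822879 (3.0 and 1.3), chromosome 4 at 150448826 to 150449025 (3.2 and 1.4), chromosome 3 at 129442765 to 129442964 (2.5 and 1.1), chromosome 8 at 23850765 to 23850964 (2.5 and 1.1) and chromosome 6 at 37759360 to 37759559 (2.7 and 1.2). Scores are deposited with 1 decimal, so each may be off by up to 0.05. At the least favourable values that this rounding allows, 146 of the 201 sites still reached a ratio of 1.5.

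The limits of the rule cut through a continuous range. Just inside the ratio, 15 sites stood at exactly 1.5, among them chromosome 6 at 116616012 to 116616211 (3.9 at ZT22 and 2.6 at ZT10) and chromosome 12 at 82707594 to 82707793 (3.3 and 2.2). Just outside it, the pair on chromosome 11 at 118027982 to 118028181 (4.3 and 2.9) had 1.48, and 132 pairs lay from 1.4 to below 1.5. At the score limit, 19 sites had a ZT22 score of 2.5 and 21 pairs of sufficient ratio had 2.4. Of these, the pair on chromosome 11 at 79659306 to 79659505 (2.4 and 1.2) missed by 1 step of the score.

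The peaks of a ZT22-higher site were closely aligned between the lists. Their centres were a median of 18 bp apart (order-statistic 95% interval 15 to 22), within 50 bp at 172 sites and at the same base at 3. The other pairs at ZT22 scores of 2.5 or more, 4076 once ZT10-higher sites are left out as well, had a median of 15 bp (14 to 15), and the ZT10-higher sites 22 bp (19 to 24). Over all 14578 pairs, weaker ones included, the median was 19 bp. Pairing by overlap keeps the centres of 200 bp peaks less than 200 bp apart in every set. The small gap to the other pairs was seen in the weakest class, 25 against 18 bp at ZT22 scores from 2.5 to below 3, but not from 3 to below 4, where both medians were 15 bp. Centres more than 100 bp apart were found at 7 sites (3.48%, 1.41 to 7.04), against 2.06% (1.65 to 2.55) of the other pairs. The widest gap was 185 bp on chromosome 9 at 48497047 to 48497246 (3.6 at ZT22 and 2.1 at ZT10).

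ZT22-higher sites stood alone along the genome more often than the other pairs at ZT22 scores of 2.5 or more and the ZT10-higher sites. No other peak of either list lay within 10 kb of 82 of the 201 sites (40.8%, 33.9 to 47.9). The same held for 24.9% (23.5 to 26.2) of the other pairs at ZT22 scores of 2.5 or more and for 26.0% (22.2 to 30.1) of the ZT10-higher sites. The interval of the ZT22-higher sites did not overlap either of the others. Within 5 kb the shares were 53.2% (46.1 to 60.3), 39.6% (38.1 to 41.1) and 38.3% (34.0 to 42.7), again without overlap, whereas within 2 kb the intervals of the ZT22-higher sites and the other pairs did overlap, 69.2% (62.3 to 75.5) against 61.6% (60.1 to 63.1). Both lists contributed: another ZT10 peak lay within 5 kb of 39.3% of the ZT22-higher sites and of 50.1% of the other pairs, and another ZT22 peak within 5 kb of 40.3% and 53.1%.

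Over all 14578 pairs, weaker ones included, 4679 stood alone within 10 kb, a share between that of the ZT22-higher sites and those of the 2 sets above. Peak strength was compared beside lone position, since the sites were weaker on average than the other pairs. The classes below are of ZT22 score alone. ZT10 score was not matched, and its median was 1.9 at the ZT22-higher sites and 3.3 at the other pairs. At ZT22 scores from 2.5 to below 3, 38 of 84 ZT22-higher sites (45.2%, 34.3 to 56.5) and 25.7% (23.5 to 28.0) of the other pairs stood alone within 10 kb. From 3 to below 4 it was 36 of 89 (40.4%, 30.2 to 51.4) and 23.5% (21.3 to 25.8). At 4 or more it was 8 of 28 (28.6%, 13.2 to 48.7) and 25.4% (22.9 to 28.0), which this number of sites cannot separate. Read the other way, 7.35% (5.89 to 9.04) of the 1116 lone pairs with a ZT22 score of 2.5 or more were ZT22-higher sites, against 3.66% (3.04 to 4.36) of the 3253 pairs with a neighbour. For ZT10-higher sites these shares were 11.2% (9.43 to 13.1) and 10.2% (9.25 to 11.2), with overlapping intervals.

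**Figure D4:**
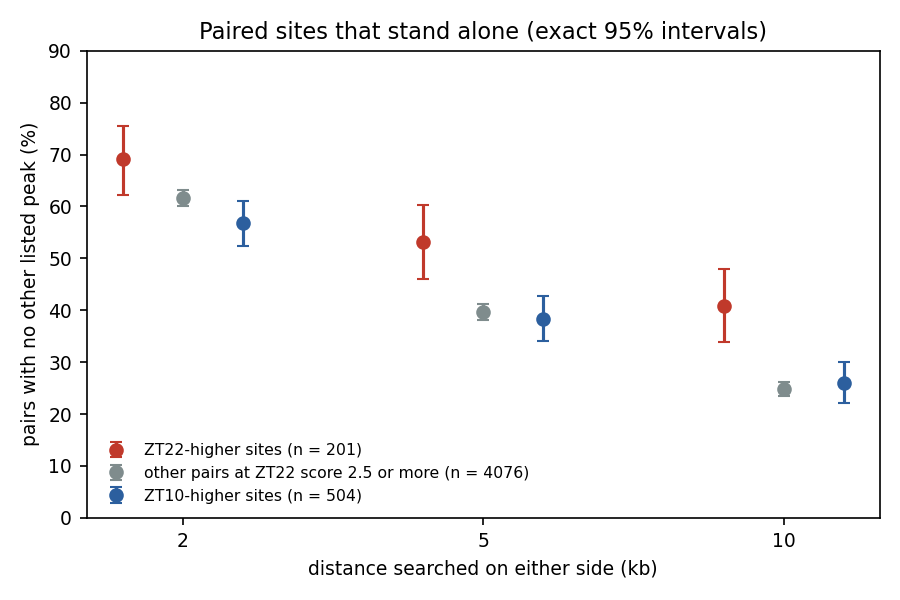
Share of paired sites with no other listed peak of either list within 2, 5 or 10 kb (x), in percent (y), for the ZT22-higher sites (red), the other pairs at a ZT22 score of 2.5 or more (grey) and the ZT10-higher sites (blue); bars are exact 95% intervals. At 10 kb the ZT22-higher sites reach 40.8%, against 24.9% and 26.0%.

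The lone sites had scores close to those of the rest. Their median scores were 3.0 at ZT22 and 1.8 at ZT10, against 3.1 and 1.9 for the 119 sites with a neighbour, and the median ratio was 1.63 in both. The strongest lone sites after the 3 named above were on chromosome 14 at 21572310 to 21572509 (4.8 at ZT22 and 3.1 at ZT10), chromosome 8 at 124505562 to 124505761 (4.5 and 2.8) and chromosome 2 at 171932326 to 171932525 (4.4 and 2.2). The last of these had its nearest other peak 104 kb away. On the wider scale of 500 kb to either side, the ZT22-higher sites had a median of 38 other listed peaks (32 to 42), against 43 (42 to 44) around the other pairs and 42 (39 to 46) around the ZT10-higher sites. Peaks of both lists were added in these counts, so a place called in both counted as 2.

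Where single-list peaks lay within 2 kb of a ZT22-higher site, most were of the other list. The planned main distance was 5 kb, and 2 kb was put first after the data were seen. Within 2 kb, 26 peaks had been called at ZT10 alone and 11 at ZT22 alone, so ZT22 made up 29.7% (15.9 to 47.0). Around the other pairs at ZT22 scores of 2.5 or more it made up 56.6% (53.2 to 59.9) of 873 such peaks, around ZT10-higher sites 55.1% (46.4 to 63.5) of 138, and over the whole of both lists 58.3% (57.6 to 59.1). The interval around the ZT22-higher sites lay below those of the other pairs and of all peaks and overlapped that of the ZT10-higher sites. The 26 ZT10-only peaks were spread over 24 sites and the 11 ZT22-only peaks over 10, with 1 site having both.

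Most of the flanking ZT10-only peaks were weak, with a median score of 1.25, but some matched the ZT10 peak of the site itself. On chromosome 7 at 98691339 to 98691538 (4.0 at ZT22 and 2.4 at ZT10) a ZT10-only peak of score 3.6 lay 499 bp away. On the same chromosome at 99057120 to 99057319 (4.1 and 2.2) one of 3.2 lay 686 bp away. On chromosome 10 at 24615940 to 24616139 (3.8 and 2.4) a ZT10-only peak of 3.6 lay 734 bp to one side and a ZT22-only peak of 3.3 lay 676 bp to the other. At these 3 sites the lists thus shared the site's own peak and differed in 1 or more peaks beside it. They were chosen after their values were seen.

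Beyond 2 kb the balance of single-list peaks was different. From 2 to 5 kb ZT22 made up 63.6% (45.1 to 79.6) of 33 peaks around ZT22-higher sites, and from 5 to 10 kb 78.4% (61.8 to 90.2) of 37. Around the other pairs these shares were 58.9% (55.2 to 62.5) and 61.1% (58.0 to 64.1). From 10 to 50 kb it was 57.3% (51.5 to 63.0) against 58.3% (56.7 to 59.8). The low ZT22 share was thus seen in the nearest 2 kb, and over the whole 5 kb it was 45.7% (33.7 to 58.1) against 57.6% (55.2 to 60.1), with overlapping intervals.

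**Figure D5:**
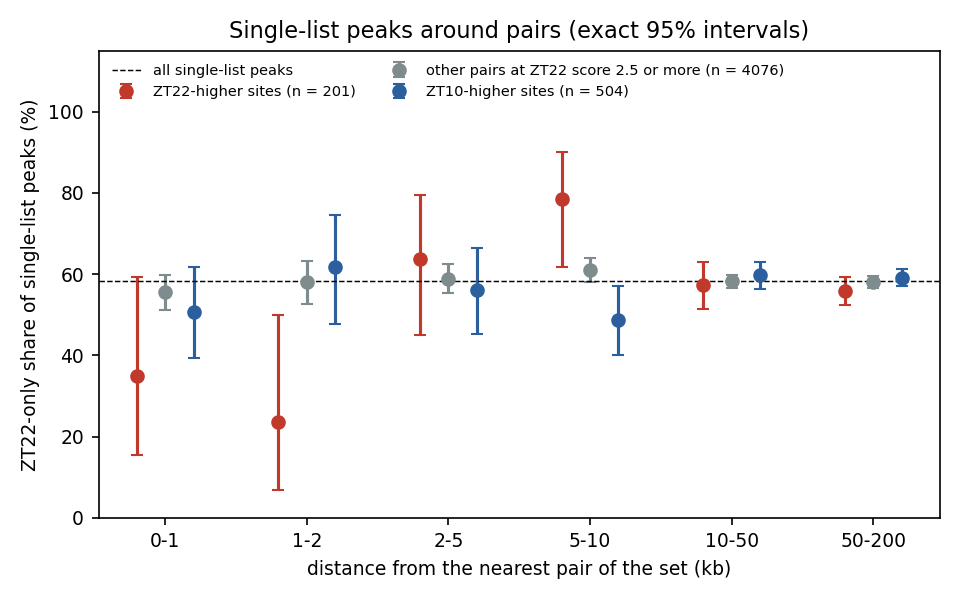
ZT22-only share of the single-list peaks (y, percent) by distance from the nearest site of each set (x, kb), for the ZT22-higher sites (red), the other pairs at a ZT22 score of 2.5 or more (grey) and the ZT10-higher sites (blue), with exact 95% intervals; the dashed line is the share over both whole lists, 58.3%. Around ZT22-higher sites the share is 35.0% within 1 kb and 23.5% from 1 to 2 kb, and 78.4% from 5 to 10 kb.

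Paired peaks beside a ZT22-higher site were higher at ZT22 about as often as pairs in general. Within 5 kb lay 69 pairs that were not themselves such sites, and the ZT22 score was the higher in 27, the lower in 39 and equal in 3. The share of 39.1% (27.6 to 51.6) was close to the 39.5% of all pairs, ZT22-higher sites included. It overlapped the 35.9% (33.7 to 38.2) around the other pairs at ZT22 scores of 2.5 or more. Around ZT10-higher sites it was 30.1% (24.6 to 36.1), also overlapping. ZT22-higher sites were left out of the neighbours there too, but ZT10-higher sites were kept. Those are lower at ZT22 by their rule, so the 30.1% is not a like counterpart of the 39.1%. From 10 to 50 kb the share was 39.4% (33.9 to 45.2).

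In 2 places a pair of ZT22-higher sites lay within 5 kb of each other: on chromosome 5 at 130307151 to 130307350 (3.3 at ZT22 and 2.0 at ZT10) and 130308829 to 130309028 (4.2 and 2.5), 1.70 kb apart, and on chromosome 2 at 35903646 to 35903845 (3.0 and 1.8) and 35907226 to 35907425 (2.9 and 1.6), 3.55 kb apart. Up to 100 kb, 7 neighbouring pairs of sites were found in all. The ratios were 1.65 and 1.68 at the chromosome 5 sites and 1.67 and 1.81 at those on chromosome 2.

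All 19 autosomes and chromosome X held at least 1 site. The share of pairs with a ZT22 score of 2.5 or more that were ZT22-higher sites was 4.6% over the genome (4.00 to 5.26) and ran from 2.25% on chromosome 11 (8 of 356, 0.975 to 4.38) to 7.11% on chromosome 10 (16 of 225, 4.12 to 11.3) among autosomes. Of 20 chromosomes, the interval of 1, chromosome 11, left out the share of the genome. Among 20 separate intervals, 1 such miss can arise from counting error alone. Chromosome 11 was therefore not shown to be poorer in these sites than the genome. Chromosome 2 held the most sites, 21 of 344 pairs (6.10%, 3.82 to 9.18). Chromosome 11 held 41 ZT10-higher sites among 397 pairs with a ZT10 score of 2.5 or more (10.3%, 7.51 to 13.7), close to the 10.4% of the genome. The 1 site on X, at 137446767 to 137446966, scored 2.8 at ZT22 and 1.7 at ZT10.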

How the data were processed

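Per the labels' protocols, fragments of about 250 bp were selected after 15 PCR cycles. The submitters' processing notes name HOMER and mm8. Nothing used here states the aligner, peak settings, input control or read number. The authors deposited 1 peak list per library, with a score of 1 decimal per 200 bp peak. The score is the authors', and nothing states its scale. Overlaps numbered 14602, as bedtools 2.31.1 also counted, and 24 were not one to one and were left out. Distances were taken between centres. Coordinates are 1-based in mm8. Gene names, annotation and sequences were not used here, since the tables at hand are of another build. No p-value was computed, for want of replicates. Sites named were the 10 strongest, the 10 highest ratios, the 5 largest percentile gains, those at the limits and groups within 5 kb. The sites and comparisons were chosen with earlier results of these data known. Pairing and neighbour counts were tested on simulated data. Other score limits, ratios, overlaps, distances and a rank scale were tried. Python 3.11.15, NumPy 2.4.6, pandas 2.3.3, SciPy 1.17.1 and matplotlib 3.10.9 were used.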

Additional observations from a re-analysis of the deposited data

How the results depend on the processing

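The number of sites, 201, was 117 with a ZT22 score of 3 or more, 367 with 2 or more and 22 with a ratio of 2 or more; it stayed within 1.5 times of 201 under 50% reciprocal overlap, least favourable rounding, rank mapping and with multiple overlaps kept. The median gain of 38.1 percentile points was 32.2, 41.1 and 64.3 under the first 3 settings, 41.6 under least favourable rounding and 33.7 after rank mapping. At a ratio of 2 or more, the median centre distance was 23 bp, the share of sites was 0% on chromosome 11 (0 of 356 pairs, which at 3 counts of the total, the limit used for a count of 0, allows up to 0.843%) and on chromosome 10 (0 of 225, up to 1.33%), 14.3% of 7 neighbouring pairs were higher at ZT22, ZT22-only peaks made up 28.6% of 7 single-list peaks within 5 kb and 0% of 4 within 2 kb (up to 75%). With a distance of 2 or 10 kb in place of 5, another ZT22 peak was found near 23.4% or 53.2% of sites, another ZT10 peak near 26.4% or 50.7%, and the ZT22-only share was 29.7% within 2 kb. The share of lone sites within 10 kb lay between 36.4% and 41.2% over its 6 alternatives, chosen after seeing the data. The 36.4%, at a ratio of 2 or more, rested on 22 sites. Its interval of 17.2 to 59.3 held the 24.9% of the other pairs and the 26.0% of the ZT10-higher sites. Those 2 shares were not computed again under the alternatives, so whether the excess of lone sites held under each was not tested. The ZT22-only share within 2 kb, likewise put first after seeing the data, was at most 39.7% (28.0 to 52.3), with ZT22 scores of 2 or more. No paired analysis was possible, since different mice were killed at each time. The samples of a time were pooled before sequencing, so leaving out a replicate was not possible either. Unknown depth limits what a missing weak peak shows.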

Other observations

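Over all pairs, the ZT22 score was also the higher more often at lone pairs than at pairs with a neighbour. This share asks only which score was higher, so its size cannot be set against that of the share meeting the ratio. Of the 4679 pairs with no other listed peak within 10 kb, the ZT22 score was the higher in 42.6% (41.1 to 44.0) and the median ratio was 1. Of the 9899 pairs with a neighbour these values were 38.0% (37.1 to 39.0) and 0.95. At ZT22 scores of 2.5 or more, the ZT22 score was the higher in 57.4% (54.5 to 60.4) of 1116 lone pairs and 47.7% (46.0 to 49.4) of 3253 with a neighbour. At ZT10 scores of 2.5 or more, it was the higher in 32.6% (29.9 to 35.4) of 1172 and 28.0% (26.6 to 29.5) of 3653. Lone pairs and the rest were not matched for score beyond these limits. The comparisons were made after the result for the ZT22-higher sites was seen, and they include those sites. Read depth and the scale of the score, which could differ between the libraries, were not tested.

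Of the ZT22-higher sites on chromosome 7, 3 lay between 97292547 and 99057319, and each had at least 1 ZT10-only peak within 2 kb. Their scores were 8.0, 4.0 and 4.1 at ZT22 and 3.4, 2.4 and 2.2 at ZT10. This stretch was picked after its values were seen.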
